A study of Bos taurus with 12 samples.

Results

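The genes described here are those of motile and primary cilia in bovine endometrium, followed for 14 days after an antiseptic was given into the uterus. They were taken from the array by name: every probe named for an axonemal dynein heavy chain (DNAH) or intermediate chain (DNAI), a tektin (TEKT), a radial spoke protein (RSPH), an intraflagellar transport protein (IFT) or a Bardet-Biedl syndrome protein (BBS), and the single genes FOXJ1, SPAG6, SPAG16, SPAG17, CCDC39, CCDC40 and DNALI1. HYDIN was on the list but is not analysed here. The rule found 43 genes on 82 probes, out of 25314 gene names on 43653 probes. Of these, 26 genes are axonemal (39 probes), 9 belong to intraflagellar transport (27 probes), 7 are BBS genes (14 probes) and FOXJ1 stands alone (2 probes). The current RefSeq symbol was the same as the file's name for all 82 probes. Each gene was followed by the 1 probe with the highest mean over the arrays, and comparisons are made between samples for that probe, not between probes.

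Endometrium was biopsied in 3 cows, described as fertile, on days 0, 2, 7 and 14 relative to treatment with povidone-iodine (PVP-I), an iodine antiseptic. All 12 biopsies come from treated cows: the comparison is with the same cow's day 0, and no untreated cow is among the samples. Each biopsy gave 1 one-colour Agilent array, so every day has 3 arrays and every cow 4. Age, breed, uterine horn and stage of the oestrous cycle are not given, and neither is whether day 0 preceded the treatment.

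A motile cilium is built on an axoneme, a ring of doublet microtubules around a central pair. Outer and inner dynein arms walk along the doublets, radial spokes and the central apparatus coordinate them, the CCDC39-CCDC40 ruler sets the spacing of the repeats, and tektins run inside the doublets. FOXJ1 is the transcription factor that switches on these genes in ciliated cells, and in the endometrium such cells lie scattered in the luminal and glandular epithelium. Intraflagellar transport carries cargo along motile and primary cilia alike, and the BBSome carries membrane proteins, so their genes are used by most cell types of the tissue. In a biopsy, fewer cells of a type and less RNA per cell cannot be told apart.

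The 60-base probes below show what was measured. SPAG6, a central apparatus protein, has 4 probes, of which a pair shares 53 bases, in capitals. The SPAG6 values below come from another, brighter probe (chr13:22973673-22973732, plus strand), which is not printed. The files place the pair at chr13:22963279-22966319 and chr13:22963276-22966316 of Btau_3.1, plus strand, in a span that is much longer than the probes.
SPAG6, first probe: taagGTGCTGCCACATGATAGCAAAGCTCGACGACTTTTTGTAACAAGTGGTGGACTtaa
SPAG6, second probe: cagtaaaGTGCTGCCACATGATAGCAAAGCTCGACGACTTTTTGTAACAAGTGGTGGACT
The other sequences stand for FOXJ1, a dynein of each arm, a tektin and the transport complexes A and B, and are given in lower case with nothing marked.
FOXJ1: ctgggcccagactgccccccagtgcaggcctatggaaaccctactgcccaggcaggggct
DNAH6: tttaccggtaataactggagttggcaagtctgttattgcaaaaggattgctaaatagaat
DNAI1: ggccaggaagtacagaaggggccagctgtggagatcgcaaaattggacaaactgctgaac
TEKT1: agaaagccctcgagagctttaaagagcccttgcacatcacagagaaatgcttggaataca
IFT122: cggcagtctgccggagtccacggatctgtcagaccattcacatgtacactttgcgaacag
IFT88: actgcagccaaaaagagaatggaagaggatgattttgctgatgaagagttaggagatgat
In the Btau_3.1 coordinates of the files, the FOXJ1 probe lies at chr19:57262765-57262824 (plus strand), the DNAH6 probe at chr11:52103548-52103598 (minus), the DNAI1 probe at chr8:80116803-80116862 (plus), the TEKT1 probe at chr19:25167879-25167938 (minus), the IFT122 probe at chr22:57741631-57741690 (minus) and the IFT88 probe at chr12:36195249-36195308 (minus). Exons and untranslated regions were not annotated here, since no genome of that build was used.

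Of the 82 probes, 78 share no run of 20 bases with a probe of another gene name. The other 4 all belong to IFT80, a complex B subunit, and they include the one that stands for it. Runs of 20 or more bases of the probe that stands for IFT80 are found on 17 probes of 12 other gene names, so its signal may not be IFT80's alone. The brightest IFT80 probe without such sharing gave log2 changes of 0.21, 0.54 and -0.16 for day 2 and day 7 against day 0 and for cow 3 against cow 1, and did not pass the test in any of them. DNAH6 has 2 probes in overlapping intervals of the files, which share no run of 20 bases. The one used here was well above background on 9 arrays and the other on 0.

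The array of a biopsy is named here by the columns of the authors' value table, whose values correlate with those of a single scanner file each (r = 1, against at most 0.5196 for any other file). For 10 of the 12 arrays, the file linked to that sample name is another one, and the results under the file links are given below. Under the table's names each slide holds the 4 days of 1 cow, so cow and slide cannot be told apart, and neither can day and position on the slide. The share of probes well above background was 63.2% on the day 2 array of cow 3 and 71.3% to 76.0% elsewhere. At the arrays' 75th percentiles, to which signals were scaled, intensity ran from 824 to 1117, and 0 probes were saturated on all arrays. Markers of endometrial epithelium were present: all 16 epithelial markers on the array passed the filter on dim probes.

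A probe was tested where it was well above background on at least 3 of the 12 arrays, which 38 of the 43 genes passed: 21 of 26 axonemal genes, all 9 intraflagellar and 7 BBS genes, and FOXJ1. The 5 left out are the dynein heavy chains DNAH2 and DNAH5, the central apparatus genes SPAG16 and SPAG17, and TEKT5, a tektin known from sperm. SPAG16, SPAG17 and TEKT5 were not well above background on any array, DNAH5 was so on 1 and DNAH2 on 2. The number of the 26 axonemal genes well above background was 20 or 21 on the 3 day 0 arrays and 20 to 22 on the later arrays of cows 1 and 2. In cow 3 it was 11 on day 2, 13 on day 7 and 13 on day 14. All 9 intraflagellar genes were well above background on all 12 arrays.

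In the median of each cow the axonemal genes stood lower on days 2 and 7 than on day 0, and they differed far more between the cows than the intraflagellar genes did. Levels are log2 signals relative to the array's 75th percentile, and the class values below are medians over genes after each gene's mean over the 12 arrays was taken off. For the 21 tested axonemal genes this median was 1.15, 0.32 and 0.20 on day 0 (cows 1, 2 and 3, in this order throughout). Day 2 gave 0.35, -0.19 and -1.41, day 7 gave 0.33, 0.14 and -1.35, and day 14 gave 0.78, 1.08 and -1.67. By day 14 cow 1 was part of the way back to its day 0 level and cow 2 was above its own, whereas cow 3 stood lower on each of its later arrays than on day 0. The 9 intraflagellar genes had medians of 0.27, 0.04 and 0.29 (day 0), -0.07, -0.48 and -0.04 (day 2), -0.16, -0.18 and -0.16 (day 7), and 0.28, 0.53 and -0.28 (day 14). Cow 2 was lowest on days 0, 2 and 7, and cow 3 on day 14, when it was lowest for all 9 genes. The 7 BBS genes moved least, between 0.42 (cow 3, day 0) and -0.28 (cow 3, day 14).

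**Figure D1:**
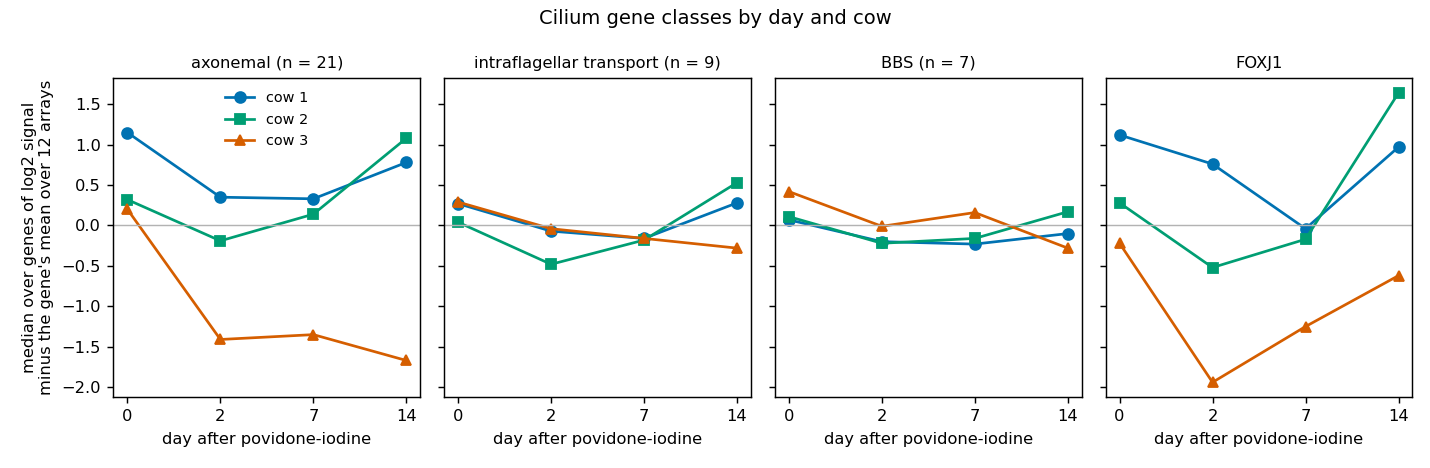
Median over the genes of a class of the log2 signal minus the gene's mean over 12 arrays (y axis) on days 0, 2, 7 and 14, evenly spaced (x axis), with 1 line per cow. The axonemal median of cow 3 is at 0.20 on day 0 and between -1.35 and -1.67 later, while the intraflagellar medians of the 3 cows stay between -0.48 and 0.53.

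The spread of single genes shows the same contrast. Over the 12 arrays the range of an axonemal gene had a median of 3.53 on the log2 scale (0.83 to 5.76), against 1.18 (0.75 to 1.67) for intraflagellar and 0.92 (0.72 to 1.68) for BBS genes, and 1.40 over all probes tested. Only 11 of the 21 axonemal genes were well above background on all 12 arrays, against all 9 intraflagellar genes. A range that reaches the background is uncertain in size. The lowest of a gene's 12 arrays was one of cow 3 in 18 of 21 axonemal genes and in 2 of 9 intraflagellar genes. The highest was cow 1's day 0 array in 9 axonemal genes and cow 2's day 14 array in 10. The plot of single genes shows this as a dark block over the dynein, spoke, ruler and tektin genes in the later arrays of cow 3, which ends at the intraflagellar genes.

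**Figure D2:**
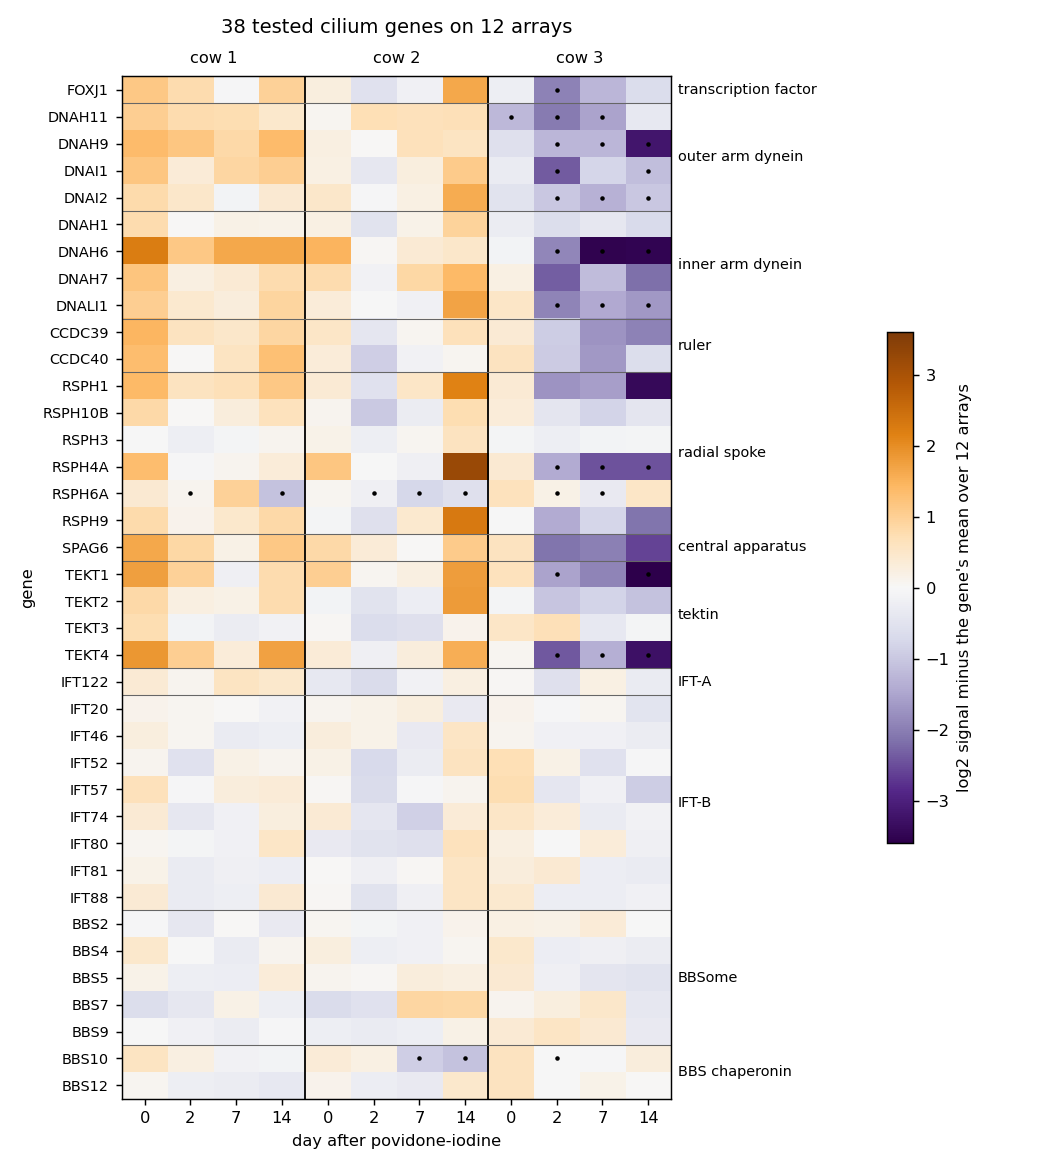
Each of the 38 tested genes (rows, grouped by role) on the 12 arrays (columns, by cow and then day), coloured by log2 signal minus the gene's mean over the arrays, with a dot where the probe was not well above background. The lowest values lie in the axonemal genes of cow 3 on days 2, 7 and 14, and RSPH3, RSPH6A and TEKT3 do not share that pattern. In RSPH10B it is weaker, and the lowest array is that of cow 2 on day 2.

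Against day 0, the median log2 change of the 21 axonemal genes was -1.02 on day 2 (-0.79, -0.61 and -1.40 by cow), -0.70 on day 7 (-0.69, -0.26 and -1.12) and -0.49 on day 14 (-0.37, 0.67 and -2.11). For the intraflagellar genes it was -0.39 (-0.47, -0.30 and -0.27), -0.44 (-0.35, -0.22 and -0.53) and -0.15 (-0.10, 0.41 and -0.59). For the BBS genes it was -0.35, -0.35 and -0.22, and for all probes tested 0.00, 0.04 and 0.05. The 3 comparisons share their day 0 arrays. Among the 11 axonemal genes that were well above background on all 12 arrays, the medians were -0.87, -0.70 and -0.45. The axonemal median lay below the intraflagellar one by -0.63 on day 2 (SD 0.47, n = 3 cows), with -0.32, -0.31 and -1.13 by cow. On day 7 the difference was -0.25 (SD 0.28), and on day 14 it was -0.34 (SD 0.91), with cow 2 at 0.26. Only on day 2 did it exceed its SD over the cows. With normexp background correction and quantile normalization in place of the percentile scaling, the differences were -0.03, 0.12 and 0.16, and without cow 3 they were -0.37, -0.23 and 0.11.

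Direction was more uniform than size. On day 2, 19 of 21 axonemal and 7 of 9 intraflagellar genes were lower than on day 0 in every cow, against 26.5% of all probes tested. On day 7 this held for 14 of 21 and 4 of 9 (25.2% of all probes). By day 14 it held for 3 of 21 and 2 of 9 (19.7%).

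Few of these differences passed the test, limma with the cow as a block and p-values adjusted over all 33539 probes tested. On day 2, 0 of 38 genes passed (background: 2.52% of all probes called), with 11 at an unadjusted p under 0.05. On day 7, 2 of 38 passed, both lower (background 18.2% called in either direction and 7.9% lower), so the genes of cilia were called no more often than other probes. On day 14, 0 passed (background 0.116%), with 4 at an unadjusted p under 0.05. The other comparisons of days gave 0 each: day 7 against day 2 (background 0.474%, 2 at an unadjusted p under 0.05), day 14 against day 2 (0.0% of all probes called, 8) and day 14 against day 7 (0.146%, 4). The F-test over the 4 days called 0 as well (background 7.83%), with 10 at an unadjusted p under 0.05.

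Markers of other cells moved on the days on which the axonemal genes were low. The summed signal of 14 tested leukocyte markers, in units of the array's 75th percentile, was 6.65 to 8.10 on day 0, 15.7 to 20.6 on day 2, 9.88 to 23 on day 7 and 9.23 to 9.92 on day 14. Their median log2 change was 1.20 on day 2 and 1.09 on day 7, with 3 and 6 called higher (background 2.52% and 18.2% called). Cow 3, which had the lowest axonemal median on days 2 and 7 (-1.41 and -1.35), had the smallest leukocyte sums on these days (15.7 and 9.88). PTPRC, the leukocyte antigen CD45, rose by 1.36 (adjusted p = 0.0252) and 1.56 (adjusted p = 0.00489), while NCR1, a receptor of natural killer cells, was not well above background on any array. The summed signal of 10 tested gland and secretory markers was 0.759 to 1.25, 12.3 to 26.1, 19.5 to 75.3 and 1.07 to 2.25 over the days in order. Of these markers 1 was called higher and 1 lower on day 2, and 2 higher on day 7. Their median log2 change was only 0.86, 0.49 and 0.33 on days 2, 7 and 14. In cow 2 their median centred level was -0.10 on day 0 and -0.21 on day 7, although the day 7 sum was 60.4. The part of these cells in the day 2 and day 7 changes was not tested.

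**Figure D3:**
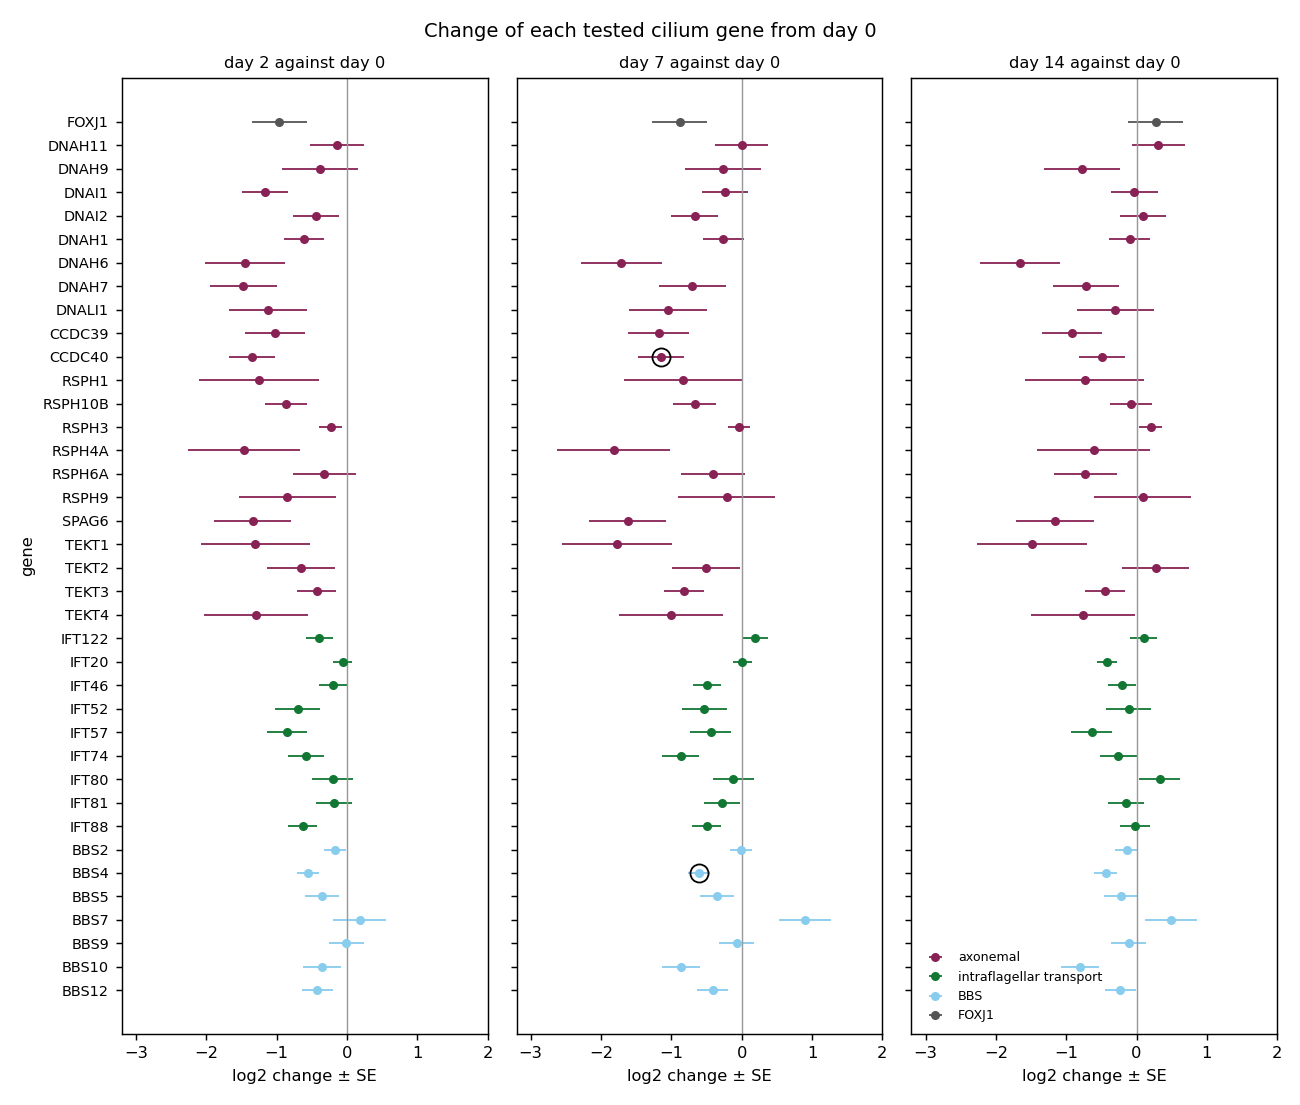
Log2 change from day 0 (x axis, point ± SE of the limma fit) of each tested gene (y axis) on days 2, 7 and 14, with rings around the 2 genes past the threshold. CCDC40 at -1.15 and BBS4 at -0.61 are ringed on day 7, and the axonemal genes have the wider error bars.

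The genes called on day 7 were CCDC40 and BBS4. CCDC40, a protein of the axonemal ruler, read -0.73, -1.75 and -1.47 (day 0), -2.05, -2.94 and -3.01 (day 2), -1.50, -2.18 and -3.74 (day 7) and -0.78, -1.99 and -2.66 (day 14). Each cow was lower on days 2 and 7 than on its own day 0. The day 2 values lay below all day 0 values, and those of day 7 overlapped them. The change was -1.15 (SE 0.33, adjusted p = 0.0463) on day 7, a 2.23-fold lower signal, and -1.35 (SE 0.33, adjusted p = 0.0742) on day 2. BBS4, a BBSome subunit, read 2.66, 2.46 and 2.66 (day 0), 2.18, 1.97 and 1.95 (day 2), 1.90, 2.03 and 2.01 (day 7) and 2.30, 2.25 and 1.91 (day 14). All later arrays lay below all 3 of day 0. It fell by 0.61 on day 7 (SE 0.16, adjusted p = 0.0329), a 1.53-fold lower signal, and its change on day 2 was -0.55 (SE 0.16, adjusted p = 0.101). Of its other probes, the one placed at chr10:19803318-19803375 was called on day 2 (-0.85, adjusted p = 0.0492) and on day 7 (-1.05, adjusted p = 0.00919), and the one at chr10:19799149-19799208 was not (-0.34 and -0.36, adjusted p = 0.279 and 0.162). The day 7 calls of both genes ended without cow 1 (adjusted p = 0.214 for CCDC40 and 0.306 for BBS4), without cow 2 (0.144 and 0.174) and without cow 3 (0.0738 and 0.0599). They also ended with no filter on dim probes (0.064 and 0.0566) and under the file links (0.972 and 0.99). That of CCDC40 ended as well without the cow block (0.234), with quantile scaling (0.0567) and with the mean of all its probes (0.0623).

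FOXJ1, the regulator of motile cilium genes, read -3.72, -4.57 and -5.07 (day 0), -4.08, -5.37 and -6.79 (day 2), -4.88, -5.01 and -6.10 (day 7) and -3.88, -3.21 and -5.47 (day 14). It was lower than on day 0 in every cow on days 2 and 7, and on day 14 cow 2 was above its day 0 level while cows 1 and 3 were below theirs. Its log2 change was -0.96 (SE 0.39, adjusted p = 0.213), -0.88 (SE 0.39, adjusted p = 0.149) and 0.27 (SE 0.39, adjusted p = 0.729) on days 2, 7 and 14. Cow 3 was the lowest of the cows on each day.

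Outer dynein arms give the cilium most of its stroke power. Their 4 tested genes changed by -0.41 in the median on day 2, -0.26 on day 7 and 0.03 on day 14. The intermediate chain DNAI2 read -4.83, -5.14 and -6.12 (day 0), -5.13, -5.66 and -6.63 (day 2), -5.73, -5.40 and -6.97 (day 7) and -5.20, -4.02 and -6.61 (day 14). The heavy chain DNAH9 read -3.53, -4.63 and -5.42 (day 0), -3.71, -4.88 and -6.12 (day 2), -4.06, -4.22 and -6.12 (day 7) and -3.51, -4.31 and -8.07 (day 14). In both genes cow 3 was lowest on each of the 4 days. DNAI1, another intermediate chain, read -3.93, -4.87 and -5.38 (day 0), -4.73, -5.47 and -7.46 (day 2), -4.21, -4.83 and -5.86 (day 7) and -4.06, -3.99 and -6.21 (day 14). DNAH11, a heavy chain, read -4.30, -5.25 and -6.55 (day 0), -4.56, -4.60 and -7.36 (day 2), -4.59, -4.65 and -6.85 (day 7) and -4.86, -4.63 and -5.67 (day 14). DNAI1 and DNAH11 are named for the comparison of cows and were chosen after their values were seen. For DNAH11, cow 3 lay below the other cows on every day.

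Inner arm dyneins shape the bend of the cilium. The 4 tested genes had medians of -1.28, -0.88 and -0.51 on days 2, 7 and 14. DNAH6 read -2.55, -3.31 and -4.87 (day 0), -3.65, -4.73 and -6.69 (day 2), -3.13, -4.41 and -8.31 (day 7) and -3.13, -4.29 and -8.29 (day 14). In cow 3 it was well above background on day 0 only, and its day 7 and day 14 values there are the lowest of the 12. DNAH7 read -0.47, -0.91 and -1.47 (day 0), -1.43, -1.80 and -4.02 (day 2), -1.30, -0.81 and -2.83 (day 7) and -0.89, -0.29 and -3.85 (day 14). Each cow was lower on day 2 than on day 0, by the most in cow 3, and on day 14 cow 2 was above its day 0 level. DNAH7 was well above background on all arrays, so its low values in cow 3 were measured. The day 2 changes were -1.45 (SE 0.57, adjusted p = 0.197) for DNAH6 and -1.47 (SE 0.47, adjusted p = 0.137) for DNAH7.

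CCDC39, the partner of CCDC40 in the ruler, read -2.40, -3.33 and -3.46 (day 0), -3.25, -4.25 and -4.76 (day 2), -3.35, -3.78 and -5.58 (day 7) and -2.97, -3.19 and -5.80 (day 14). It was lower than on day 0 in every cow on days 2, 7 and 14, except for cow 2 on day 14. The log2 change was -1.18 (SE 0.43, adjusted p = 0.0899) on day 7.

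Radial spoke genes were not uniform. RSPH4A, a spoke head protein, read -4.55, -4.73 and -5.49 (day 0), -5.93, -5.90 and -7.33 (day 2), -5.79, -6.08 and -8.36 (day 7) and -5.57, -2.67 and -8.35 (day 14). The single high value is cow 2's on day 14, and cow 3 was not well above background on any later day. Its log2 change on day 7 was -1.82 (SE 0.80, adjusted p = 0.146). RSPH3, a protein of the spoke stalk, read 0.53, 0.69 and 0.48 (day 0), 0.35, 0.34 and 0.33 (day 2), 0.48, 0.63 and 0.45 (day 7) and 0.66, 1.16 and 0.49 (day 14). Its 12 arrays spanned 0.83, the least of any axonemal gene tested. RSPH6A was not well above background on any day 2 array, so no fold is given for it there.

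SPAG6 was the only tested gene of the central apparatus. It read 0.14, -0.67 and -0.88 (day 0), -0.65, -1.16 and -3.62 (day 2), -1.31, -1.47 and -3.47 (day 7) and -0.35, -0.42 and -4.11 (day 14), and was well above background on all arrays. Cow 3 stood apart from the others on days 2, 7 and 14. The changes were -1.34 (SE 0.55, adjusted p = 0.214) on day 2 and -1.62 (SE 0.55, adjusted p = 0.0748) on day 7. All 4 SPAG6 probes gave negative changes (day 2: -1.27 to -1.79, day 7: -1.41 to -1.92), although the pair printed above shares most of its bases and is no separate evidence.

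Tektins had medians of -0.97, -0.92 and -0.60. TEKT1 read -2.42, -3.17 and -3.55 (day 0), -3.22, -4.11 and -5.71 (day 2), -4.38, -3.94 and -6.12 (day 7) and -3.42, -2.41 and -7.78 (day 14). It was lower on day 7 than on day 0 in every cow, and on day 14 the cows ran apart, with cow 2 highest and cow 3 lowest. TEKT2 read -0.36, -1.31 and -1.27 (day 0), -0.96, -1.70 and -2.22 (day 2), -1.02, -1.44 and -2.01 (day 7) and -0.44, 0.61 and -2.29 (day 14). Its day 14 values span from the highest to the lowest of its 12 arrays. TEKT3 was an exception among tektins: its cow 3 array was the highest of the 3 cows on day 2.

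Intraflagellar transport genes varied little between the arrays. IFT122, of the complex that returns cargo from the tip, read 2.35, 1.61 and 1.99 (day 0), 2.05, 1.31 and 1.42 (day 2), 2.53, 1.82 and 2.17 (day 7) and 2.41, 2.19 and 1.66 (day 14). Cow 1 was the highest on each day, and the change was -0.39 (SE 0.19, adjusted p = 0.29) on day 2 and 0.19 (SE 0.19, adjusted p = 0.525) on day 7. Its probes disagreed on day 7: those at chr22:57757220-57757279 and chr22:57777967-57781641 were called higher (1.05, adjusted p = 0.0147, and 1.04, adjusted p = 0.017), and the last of its 4 probes was not (0.26, adjusted p = 0.623). Of the 8 genes of complex B, which carries cargo to the tip, IFT74 read -0.58, -0.56 and -0.44 (day 0), -1.34, -1.35 and -0.62 (day 2), -1.12, -1.81 and -1.26 (day 7) and -0.68, -0.59 and -1.08 (day 14). All day 7 values lay below all day 0 values, and the change was -0.87 (SE 0.26, adjusted p = 0.05), just short of the threshold. IFT74 passed with quantile scaling, with normexp and quantile normalization, and with only probes well above background on at least 9 arrays. It also passed without the cow block and without the day 2 array of cow 3, but not under the other alternatives. Its other probe gave -0.39 (adjusted p = 0.119). IFT52 read 1.20, 1.28 and 1.80 (day 0), 0.57, 0.36 and 1.26 (day 2), 1.28, 0.82 and 0.57 (day 7) and 1.19, 1.69 and 1.06 (day 14), with its day 2 values of cows 1 and 2 the lowest along with cow 3's on day 7.

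Among the BBS genes, BBS7 was the exception in direction. It read -2.05, -2.12 and -1.36 (day 0), -1.84, -1.98 and -1.18 (day 2), -1.28, -0.57 and -0.97 (day 7) and -1.65, -0.59 and -1.84 (day 14), higher on day 7 than on day 0 in every cow, with a change of 0.90 (SE 0.37, adjusted p = 0.12). BBS10 and BBS12 are chaperonin-like proteins that assemble the BBSome. BBS10, well above background on 9 arrays, read -5.05, -5.28 and -5.02 (day 0), -5.39, -5.40 and -5.63 (day 2), -5.75, -6.52 and -5.67 (day 7) and -5.72, -6.70 and -5.34 (day 14), and its change on day 7 was -0.86 (SE 0.27, adjusted p = 0.0617). BBS12 read -1.99, -1.95 and -1.45 (day 0), -2.28, -2.30 and -2.08 (day 2), -2.32, -2.39 and -1.91 (day 7) and -2.42, -1.60 and -2.06 (day 14), with -0.41 (SE 0.22, adjusted p = 0.217) on day 7. Cow 3 was the highest cow for BBS12 on days 0, 2 and 7.

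The comparison of cows was added after the data were seen and uses the same fit, with the day as the other term. Each side is 1 animal on 1 slide, so these p-values measure the spread over the days and not that between animals. Cow 3 against cow 1 called 6 of 38 genes, all lower and all axonemal (background 1.53% of all probes called, 1.03% lower). They were DNAH6, DNAI1, DNAH11, DNAH9, SPAG6 and CCDC39. The median difference was -1.90 for axonemal, -0.07 for intraflagellar and 0.36 for BBS genes, and -0.05 for all probes. By day it was -1.01, -1.54, -1.68 and -2.59 for the axonemal genes on days 0, 2, 7 and 14. For the 11 axonemal genes well above background on all arrays the median was -1.45, with 2 called. Of the intraflagellar and BBS genes 0 were called, and FOXJ1 had -1.71 (SE 0.34, adjusted p = 0.0531).

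DNAH6 differed by -3.93 (SE 0.49, adjusted p = 0.0117), with 1 of 4 arrays of cow 3 well above background. DNAI1 differed by -2.00 (SE 0.28, adjusted p = 0.0209), DNAH11 by -2.03 (SE 0.33, adjusted p = 0.0319) and DNAH9 by -2.73 (SE 0.47, adjusted p = 0.0374), with 2, 1 and 1 of cow 3's arrays well above background. SPAG6 at -2.48 (SE 0.47, adjusted p = 0.0495) and CCDC39 at -1.90 (SE 0.37, adjusted p = 0.0499) were measured on all arrays and lie close to the threshold. With normexp background correction and quantile normalization the differences of the dim genes were much smaller: -1.08 for DNAH6 (adjusted p = 0.00633), -0.74 for DNAH9 (0.038), -0.46 for DNAI1 (0.0871) and -0.45 for DNAH11 (0.0708). SPAG6 then had -1.89 (adjusted p = 0.0406) and CCDC39 -0.81 (0.0568), so the order of the genes and 3 of the calls depend on this choice. Cow 3 against cow 2 called DNAH6, at -2.86 (SE 0.49, adjusted p = 0.038), and DNAH11, at -1.83 (SE 0.33, adjusted p = 0.0445) (background 1.2%), and both calls ended with normexp (-0.60, adjusted p = 0.0583, and -0.40, adjusted p = 0.104). Cow 2 against cow 1 called 0 (background 0.567%), with 2 at an unadjusted p under 0.05. The F-test over the cows called DNAH6, DNAH11 and DNAI1 (background 1.75%).

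Leaving out arrays changed the calls of cow 3 against cow 1. Without day 2, day 7 or day 14 the count was 0 each, without day 0 it was 4, and without the day 2 array of cow 3 it was 1. Without a day, calls over all probes also dropped, from 512 to between 24 and 45 for days 2, 7 and 14. With quantile scaling the count was 2. The difference of DNAH6 lay between -3.51 and -4.46 with a day left out, and its call ended without day 2, 7 or 14 (adjusted p = 0.103, 0.0827 and 0.0757). Under the file links it was -1.06 (adjusted p = 1.0). Cow 3 was the lowest of the cows in 13 of 21 axonemal genes on day 0, 18 on day 2, 19 on day 7 and 19 on day 14, against 45.3%, 48.0%, 31.7% and 35.4% of all probes. For the intraflagellar genes it was 1, 2, 4 and 9 of 9. Since each cow and day has 1 array, whether the cows changed differently over the days could not be tested.

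**Figure D4:**
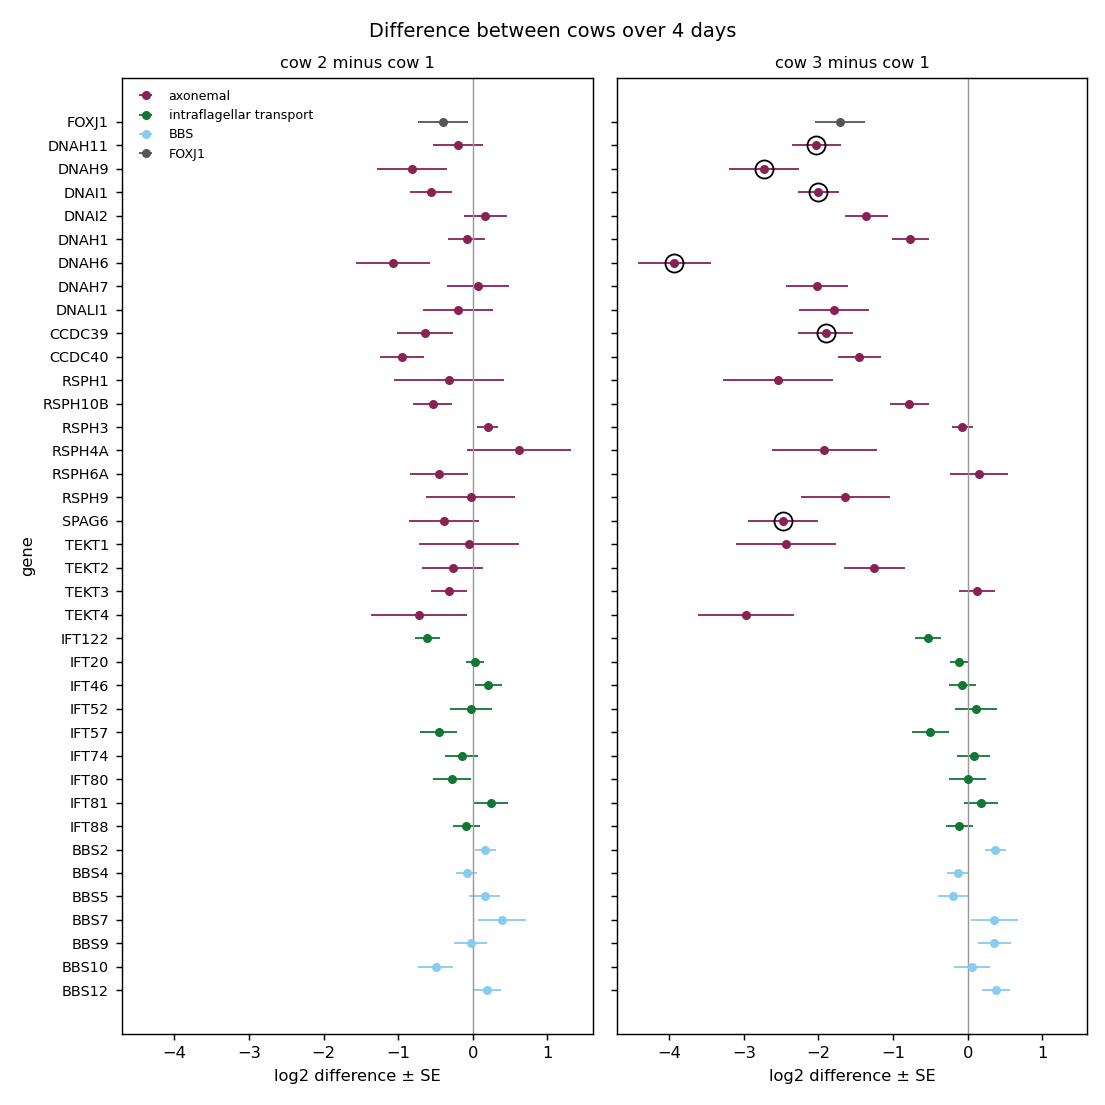
Log2 difference between cows (x axis, point ± SE of the limma fit with the day as the other term) for each tested gene (y axis), with rings where the adjusted p is under 0.05. Cow 2 minus cow 1 has 0 rings, and cow 3 minus cow 1 has 6, all on axonemal genes, with DNAH6 at -3.93.

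Smooth muscle markers moved with the cow and with the day. For the 10 on the array, which mark the myometrium and vessel walls, the median centred level was 2.21, 1.32 and 1.63 in cow 3 on days 2, 7 and 14, and -0.57 on day 0. On the other 8 arrays it lay between -1.18 and 0.30. Their summed signal, in units of the array's 75th percentile, ran from 88.5 to 560 in cow 3, 88.8 to 223 in cow 1 and 65.8 to 188 in cow 2. Over days 0, 2, 7 and 14 its ranges were 65.8 to 88.8, 92.1 to 560, 188 to 400 and 88.5 to 423. All 10 were well above background on at least 3 arrays. By day, 1 was called higher on day 2 and 4 on day 7 against day 0 (background 2.52% and 18.2% called), and between cows 0 were called in cow 3 against cow 1 and 1 against cow 2. That one was DES, the muscle intermediate filament desmin, higher in cow 3 than in cow 2 by 2.58 (SE 0.43, adjusted p = 0.0331). For the 16 epithelial markers the median was -1.24 in cow 3 on day 2, and 0.26 and -0.20 on days 7 and 14, within the range of the other cows (-0.53 to 0.46). It was -0.19 on day 0, and cow 3 was the lowest of the cows on days 0, 2 and 14. Their median log2 difference was -0.36 in cow 3 against cow 1 and -0.61 against cow 2, with 0 called in each. Their summed signal ran from 73.9 to 150 in cow 3, 91.8 to 190 in cow 1 and 138 to 184 in cow 2. By day it ran from 115 to 150, 73.9 to 190, 91.8 to 171 and 124 to 141. The part of tissue makeup in the axonemal difference was not tested.

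**Figure D5:**
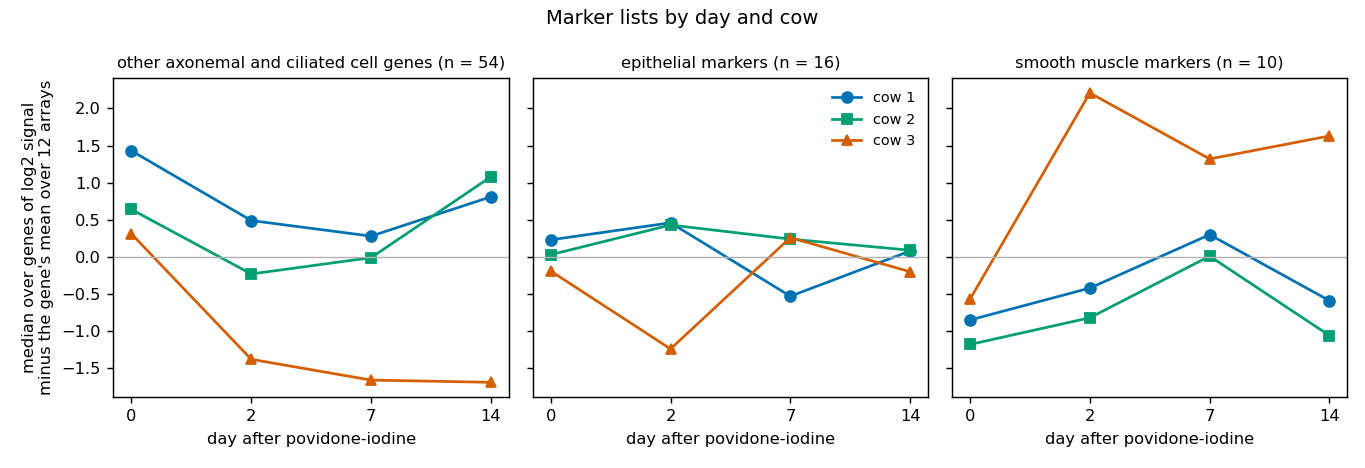
Median over the genes of 3 marker lists of the log2 signal minus the gene's mean over 12 arrays (y axis) by day (x axis, evenly spaced), with 1 line per cow. Other genes of motile cilia are lowest, and smooth muscle markers highest, in cow 3 on days 2, 7 and 14. Its epithelial markers are lowest on day 2, at -1.24, and cow 3 is the lowest cow for them on days 0 and 14 as well.

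Other genes of cilia were taken from lists written out with earlier results of these data known. Of 62 further axonemal and ciliated cell genes on the array, 54 were tested. Their median centred level by array went as that of the axonemal genes, with -1.38, -1.66 and -1.69 in cow 3 on days 2, 7 and 14 against 1.43 to -0.23 elsewhere. Against day 0 their median change was -1.12, -1.26 and -0.73, with 0 called on day 2, 14 lower on day 7 (background 7.9% of all probes lower) and 0 on day 14. The strongest calls on day 7 were IQCG (-1.10, SE 0.18, adjusted p = 0.00847) and CFAP100 (-1.13, SE 0.19, adjusted p = 0.00929), both axonemal proteins. CAPS, a calcium-binding protein of ciliated cells, fell as well (-1.65, SE 0.35, adjusted p = 0.0172). In cow 3 against cow 1, 16 of the 54 were lower (background 1.03%), IQCG with them (-1.34, SE 0.16, adjusted p = 0.00915).

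Dynein assembly factors fold and load the dynein arms in the cytoplasm. Of 9 tested, 3 fell on day 7 (background 7.9% lower): DNAAF6 (-2.12, SE 0.41, adjusted p = 0.0133), DNAAF4 (-0.76, SE 0.21, adjusted p = 0.0405) and CFAP300 (-1.07, SE 0.31, adjusted p = 0.0494). Between the cows 0 were called, and the median of cow 3 against cow 1 was -0.33. Regulators of multiciliation gave 0 calls among 6 tested, on any day or between cows, with medians of -0.11, 0.02 and 0.28 on days 2, 7 and 14.

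Genes of intraflagellar transport and the BBSome that the array carries under other names were counted apart. Of 13 tested, 1 was called on day 2 (background 2.52%) and 4 were lower on day 7 (background 7.9%). WDR19, a complex A subunit, fell on day 2 (-1.06, SE 0.18, adjusted p = 0.0306) and on day 7 (-0.75, SE 0.18, adjusted p = 0.028). On day 7 MKKS, a chaperonin-like BBS protein (-0.78, adjusted p = 0.019), IFT25 (-0.65, adjusted p = 0.0331) and TRAF3IP1 (-0.83, adjusted p = 0.039), both of complex B, fell too. Their medians were -0.38, -0.51 and -0.30 against day 0, and 0.06 in cow 3 against cow 1. Of 7 transport motor genes 2 were called on day 7 (background 18.2%): DYNC2I2 rose on day 7 (0.65, adjusted p = 0.022) and DYNLT2B fell (-0.94, adjusted p = 0.0428), both subunits of the dynein that drives return transport.

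The transition zone, the gate at the base of the cilium, was represented by 24 tested genes, of which 1 was called on day 2 (background 2.52%) and 3 on day 7, fewer in share than the 18.2% of all probes. RPGRIP1 fell on day 2 (-1.61, SE 0.26, adjusted p = 0.0276) and on day 7 (-1.98, SE 0.26, adjusted p = 0.00447), while B9D1 (0.85, adjusted p = 0.0321) rose on day 7. TMEM216 was lower in cow 3 than in cow 1 (-1.66, SE 0.21, adjusted p = 0.0125) and in cow 2 (-1.94, adjusted p = 0.00653). Hedgehog signalling runs through the primary cilium. Of its 14 tested genes, the target gene and factor GLI1 (-1.86, SE 0.40, adjusted p = 0.0183) and the receptor PTCH1 (-2.30, SE 0.60, adjusted p = 0.0337) fell on day 7, and 0 were called on days 2 and 14. Of all probes, 7.9% were called lower on day 7 and 18.2% in either direction. A count of 2 of 14 is too small to set against either share. The medians of this list were 0.03, 0.05 and 0.41.

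Ovarian steroid genes were called on day 7, and 0 of them on days 2 and 14. Of 10 tested, 5 were called (background 18.2%): ESR1 (1.86, adjusted p = 0.0121), PGR (1.74, adjusted p = 0.00942), GREB1 (2.43, adjusted p = 0.0108) and OXTR (7.73, adjusted p = 0.00363) rose on day 7, and 1 other gene fell. Those named are an oestrogen and the progesterone receptor, an oestrogen target and the oxytocin receptor. The cycle stage is not given, and its part in the changes of the genes of cilia was not tested.

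Under the file links the same 12 arrays take other names, and the axonemal result moves from a cow to a day. The arrays that the table names cow 3 on days 2, 7 and 14 are then the 3 arrays of day 14. Day 14 against day 0 called 8 of 21 axonemal genes, all lower (background 0.71% of all probes): CCDC39, DNAH6, DNAH7, DNAH9, RSPH1, SPAG6, TEKT1 and TEKT4. DNAH6 had -4.65 (SE 0.41, adjusted p = 0.00629) and SPAG6 -3.13 (SE 0.37, adjusted p = 0.013). The axonemal median was -2.22, the intraflagellar one -0.16 with 0 of 9 called, and FOXJ1 had -1.89. Day 14 called 6 against day 2 (background 0.578%) and 7 against day 7 (0.641%), and days 2 and 7 against day 0 called 0 (0 of all probes in each). The axonemal genes stand apart from the intraflagellar ones on these 3 arrays under both readings. Whether that is a difference of 1 cow or of 1 day depends on the naming. Under both namings these 3 arrays lie on 1 slide. With the file links the day 0 arrays share another slide, so day and slide cannot be told apart in day 14 against day 0. Probes on which all 4 arrays of a cow stood at least 8-fold above or below all arrays of the other cows numbered 20 under the table's names and 0 under the file links. Under the table's names each cow is 1 slide, so probes that set a slide apart would give the same count. The count therefore does not decide between the namings.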

How the data were processed

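Total RNA of 12 endometrial biopsies was hybridised in cyanine-3 to bovine Agilent arrays, 1 per biopsy. Spot intensity in the deposited scanner output had been background-subtracted and detrended array by array with Agilent Feature Extraction (11.5.1.1 per the file headers, 10.5.1.1 in the submitters' processing notes), and its flags for background, saturation and outliers were read as deposited. The deposited value table holds log2 values. Compared with the scanner output, scaling to the array's 75th percentile and centring of every probe on its median explain each column within 0.000703 (largest median absolute difference), in the same direction.

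The same scaling, without centring, was applied here to log2 processed intensity over 43653 probes. Control spots (1417) and 31 probes with outlier flags were left out, and 33539 probes well above background on at least 3 arrays were tested. limma 3.58.1 (R 4.3.3) was fitted with day and cow, with Benjamini-Hochberg adjustment over all probes at 0.05, and was tested on simulated data. The cow is a block because the same animals were biopsied on each day, per the labels' design text. Deviations from the day means correlated by 0.285 on average over 18 pairs of arrays of 1 cow (15 above 0.1) and by -0.136 over 36 pairs of different cows and days. Taking off the day means makes the second value negative where the first is positive, so it is no separate evidence. Each cow is 1 slide, so the first cannot be credited to the animal alone. The number of arrays limits the precision. The p-values for days set a change against how far such changes differ between these 3 cows, not against differences in level. Those for cows measure the spread over days within single animals.

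The genes and lists were chosen with earlier results of these data known, so no p is given for a class or a list. Values are given in full for genes past the threshold, for FOXJ1, and in each role for the gene with the largest day 7 change and the one with the highest mean signal. From the lists, up to 4 genes past the threshold are named by smallest p. A gene of the transition zone list that this rule names is not reported here. A further 16 probes would meet the naming rule by their current RefSeq symbols but not by their file names, and are not counted among the 43 genes.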

Additional observations from a re-analysis of the deposited data

How the results depend on the processing

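With 3 cows and 1 array per cow and day, a change had to be large against its own spread between the cows to pass. The dim axonemal probes have values near background in cow 3, where their folds are uncertain. The block by cow changed no count of called genes of cilia (0 on day 2, 2 on day 7 and 0 on day 14 without it), but the 2 on day 7 were then BBS4 (adjusted p = 0.0326) and IFT74, with CCDC40 lost (0.234). Where a count or value moved, the cause was not tested, except that an offset of 50 is added to each intensity under normexp and that fewer arrays or more probes enter some fits.

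Day 2 against day 0 (0 called) gave 2 with normexp and quantile normalization and 0 to 2 with a cow left out, the 2 being CCDC40 and DNAH6 without cow 3. Day 7 (2 called) gave 7 with normexp and quantile normalization, 5 without the day 2 array of cow 3, 1 with the mean of all probes of a gene, 0 with no filter on dim probes, 0 under the file links, 0 with only the 2 days compared, and 0 to 2 with a cow left out. Under the file links day 14 gave 8 against day 0, 6 against day 2 and 7 against day 7, and the F-test over days 3. That F-test gave 2 with normexp and quantile normalization and 0 to 2 with a cow left out. Day 7 against day 2 gave 0 under every alternative run.

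Cow 3 against cow 1 (6 called) gave 2 with quantile scaling, 0 under the file links, 1 without the day 2 array of cow 3 and 0 to 4 with a day left out. It gave 4 with normexp and quantile normalization and 4 with no filter. The count rose to 8 with the mean of all probes, and to 8 with only probes well above background on at least 9 arrays. Cow 3 against cow 2 (2 called) gave 0 with quantile scaling, 0 with normexp and quantile normalization, 1 with no filter, 0 under the file links, 4 with the mean of all probes, 0 without the day 2 array of cow 3 and 0 to 3 with a day left out. The F-test over cows (3 called) gave 1 with normexp and quantile normalization, 0 under the file links, 5 with the mean of all probes, 1 without the day 2 array of cow 3 and 0 to 4 with a day left out. Cow 2 against cow 1 gave 0 throughout.

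The axonemal median on day 2 (-1.02) was -0.48 with normexp and quantile normalization and -0.39 under the file links, and ran from -1.11 to -0.70 with a cow left out. On day 7 (-0.70) it was -0.10 under the file links (-0.93 to -0.45 with a cow left out), and on day 14 (-0.49) -2.22 (-1.05 to 0.17, the last without cow 3). The intraflagellar median was -0.04 on day 2 and 0.10 on day 7 under the file links, and on day 7 it ran from -0.44 to -0.22 with a cow left out. The axonemal minus intraflagellar difference was -0.03 on day 2 and 0.12 on day 7 with normexp and quantile normalization, and -2.06 on day 14 under the file links. BBS4 on day 7 was 0.07 under the file links, the only one of the called genes to reverse.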
